A study of Homo sapiens with 4 samples.

Results

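The mineralization and noncollagenous bone matrix genes described here are 10 genes chosen by name: ALPL, PHOSPHO1, ENPP1, ANKH, SPARC, SPP1, IBSP, DMP1, BGLAP and MGP. All 10 were found among the 19610 gene symbols of the mRNA table, with 31 transcripts between them. RNA was sequenced from hFOB1.19, a human fetal osteoblast line that carries a temperature-sensitive large T antigen. It divides at a lower culture temperature and differentiates at a higher one. The labels name day 0 as the control and days 3, 6 and 9 of differentiation as undergoing mineralization, and each of these 4 time points has 1 library. For the assays of mineralization, the methods describe a move to the higher temperature in fresh medium after day 0, with no mineralizing agent named, so time of differentiation and temperature cannot be told apart in a comparison with day 0. As there is 1 library per time point, no test was made and no value carries an error. Differences are given by a fixed rule of size.

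Mineral forms in bone where phosphate is set free and its inhibitor, inorganic pyrophosphate, is removed. ALPL, tissue-nonspecific alkaline phosphatase, cleaves pyrophosphate, and PHOSPHO1 releases phosphate inside matrix vesicles, while ENPP1 makes pyrophosphate from nucleotides and ANKH is needed for its release from the cell. The noncollagenous proteins bind calcium or mineral: SPARC (osteonectin), the acidic phosphoproteins SPP1 (osteopontin), IBSP (bone sialoprotein) and DMP1, and the vitamin K-dependent proteins BGLAP (osteocalcin) and MGP (matrix Gla protein), the last an inhibitor of calcification. ALPL is known as an early marker of the osteoblast, and BGLAP and IBSP as later ones.

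The authors deposited FPKM per transcript, that is, fragments scaled to the length of the transcript and to the size of the library, and these were summed for each symbol. Since FPKM are per length, levels may be set side by side between genes of a library, as far as they reflect linear mRNA. Whether these libraries were treated with RNase R, which digests linear RNA, could not be settled. The summed FPKM of all symbols ranged from 538072 to 617857 per library. The authors list the total reads of each library, but the file holds no read counts per transcript. The number of reads behind a single value is therefore not given. Log2 ratios were computed from FPKM plus 1, a scale on which differences of low genes come out smaller than they are. A gene was tested for the 2-fold rule when it reached 1 FPKM in any library, which 12859 genes did. It was taken as 2-fold higher or lower at a log2 ratio of at least 1 or at most -1. Of the 10 genes, 6 were tested, namely ALPL, PHOSPHO1, ENPP1, ANKH, SPARC and SPP1. The other 4, IBSP, DMP1, BGLAP and MGP, stayed under 1 FPKM in every library. In bulk RNA, fewer cells that express a gene and less RNA per cell cannot be told apart.

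**Figure D1:**
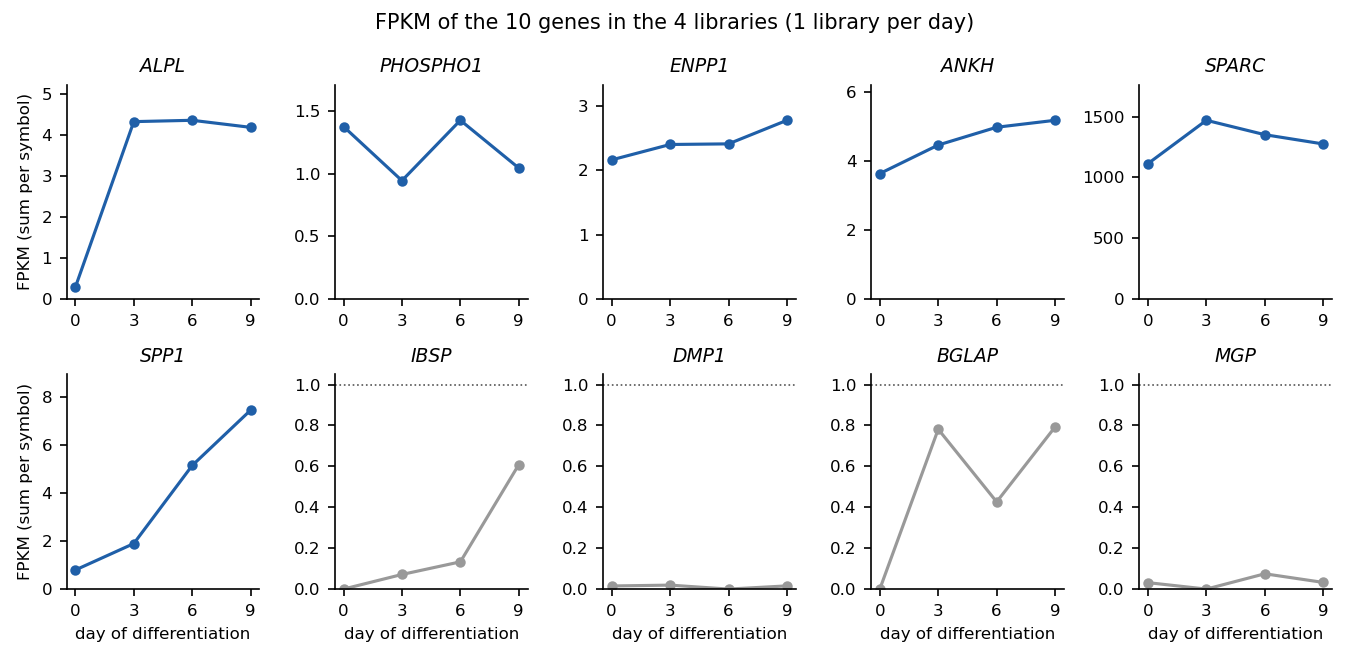
FPKM summed per symbol (y axis, a scale of its own in each panel, from 0) against day of differentiation (x axis) for the 10 genes, with 1 point per library. Grey marks the 4 genes that stayed under 1 FPKM (dotted line), while ALPL went from 0.294 FPKM on day 0 to 4.32 on day 3 and SPP1 reached 7.45 on day 9.

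Of the 6 tested genes, 2, ALPL and SPP1, were past the 2-fold limit, and they differed in time course. ALPL was 2-fold higher on all 3 later days at nearly the same level, whereas SPP1 was higher at each later time point than at the one before. On day 3, 1 of the 6 genes was 2-fold higher, beside 8.13% of all genes tested, and on days 6 and 9 there were 2, beside 9.01% and 9.60%. Of the 6, 0 were 2-fold lower on any day, where the shares of all genes were 5.30%, 6.42% and 6.52%. ALPL alone was higher on all 3 days, which held for 5.93% of all genes. On day 0, ALPL had 0.294 FPKM and SPP1 0.794, both under the minimum of 1 FPKM. They passed the minimum only through later libraries, where they were higher, so these counts are descriptions only. The median log2 ratio of the 6 was 0.32, 0.32 and 0.34, and that of all genes tested was -0.08, -0.08 and -0.09. The 3 comparisons share the day 0 library.

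ALPL (ENSG00000162551) had 0.294 FPKM at day 0 and then 4.32, 4.35 and 4.18 at days 3, 6 and 9. The day 0 library was low and the other 3 lay close together. The ratio of the deposited FPKM to day 0 was 14.7, 14.8 and 14.2. The log2 ratio after adding 1 FPKM was 2.04, 2.05 and 2.0, which exceeded that of 98.4%, 98.1% and 97.7% of the genes tested. With 0.1 FPKM added in place of 1, the log2 ratio of ALPL was 3.49, 3.50 and 3.44. Between the later libraries its log2 ratio was 0.01 for day 6 against day 3 and -0.05 for day 9 against day 6. Even so, the level of ALPL was modest, at the 1.8th percentile of the genes tested on day 0 and the 21.5th on days 6 and 9. The related phosphatases ALPP, ALPPL2 and ALPI, which act in placenta, germ cells and intestine, stayed under 1 FPKM in every library, with at most 0.473 FPKM.

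Of the 5 ALPL transcripts listed, 1 was at 0 in every library. ENST00000374840 carried 67.1% of the ALPL FPKM before differentiation and 96.8%, 95.6% and 82.0% at the later time points. Its FPKM were 0.198, 4.18, 4.16 and 3.43, so that this transcript alone, like the gene, was low on day 0 and higher in the later libraries. For day 9 against day 6 its log2 ratio was -0.22, where that of the gene was -0.05. ENST00000374830 was above 0 in the day 9 library alone, with 0.547 FPKM or 13.1% of the sum.

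SPP1 (ENSG00000118785) started at 0.794 FPKM and reached 1.89 by day 3, 5.14 by day 6 and 7.45 by day 9. No later library was below an earlier one. The ratio of its FPKM to day 0 was 2.39, 6.48 and 9.38. The log2 ratio was 0.69, 1.78 and 2.24, of which the first, that of day 3, was within the 2-fold limit and passed it, at 1.16, with 0.1 FPKM added. Part of this course does not rest on the day 0 library. For day 6 against day 3, SPP1 was 2-fold higher with a log2 ratio of 1.09, above 99.5% of the genes tested, in a comparison where 0.607% of all genes were 2-fold higher and 0.443% lower. For day 9 against day 6 its log2 ratio was 0.46, above 97.2% of the genes tested, where 0.381% of all genes were 2-fold higher and 0.163% lower. In these 2 steps, 0 of the other 5 genes were past the limit. From day 0 to day 9, SPP1 went from the 5.6th to the 33.4th percentile of level.

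All 5 SPP1 transcripts had FPKM above 0 in some library, and 2 of them carried most of the sum. ENST00000395080 had 0.715, 1.48, 3.28 and 4.82 FPKM from day 0 to day 9, and its share of SPP1 was 90.0%, 77.9%, 63.7% and 64.7%. ENST00000237623 had 0.0359, 0.418, 1.60 and 2.37 FPKM, with a share of 4.52%, 22.1%, 31.0% and 31.8%. Both were higher at each later time point, and the second took a larger share from day 3 on. For ENST00000395080 alone, the log2 ratio of day 6 against day 3 was 0.79, within the limit. Since SPP1 is also made by macrophages, 5 blood-cell markers were looked at. PTPRC, the pan-leukocyte marker, had between 0.0441 and 0.441 FPKM, and CSF1R and ITGAM were under 1 FPKM throughout. CD68, a lysosomal protein, had 16.2, 37.5, 65.1 and 90.6 FPKM and was the 1 of the 5 that was 2-fold higher on all 3 days. CD14, the other marker that reached 1 FPKM, was lower in the later libraries, at 1.07, 0.398, 0.632 and 0.428 FPKM, with log2 ratios of -0.56, -0.34 and -0.53 within the limit. CD68 took the summed FPKM of the list from 17.8 on day 0 to 91.8 on day 9. The part of these markers in the SPP1 values was not tested.

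**Figure D2:**
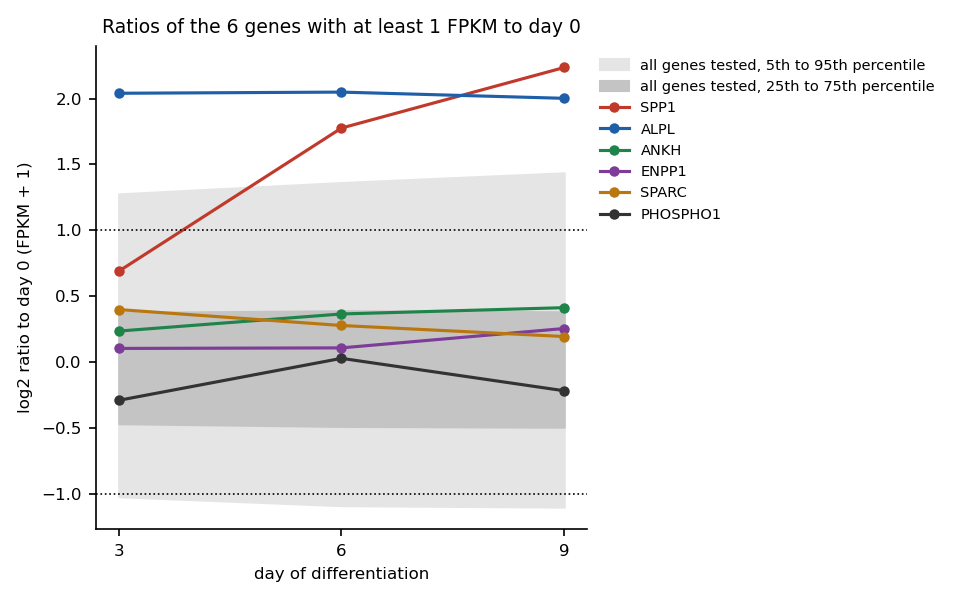
Log2 ratio to day 0 after adding 1 FPKM (y axis) on days 3, 6 and 9 (x axis) for the 6 genes with at least 1 FPKM in any library. The bands hold the 25th to 75th and the 5th to 95th percentile of the 12859 genes tested and the dotted lines mark the 2-fold limit. ALPL stayed near 2 on all 3 days, SPP1 went from 0.69 to 2.24, and the other 4 genes lay between -0.29 and 0.41.

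The remaining genes of phosphate and pyrophosphate handling were within the 2-fold limit on every day. ENPP1 (ENSG00000197594), which makes pyrophosphate, had 2.16, 2.40, 2.41 and 2.78 FPKM from day 0 to day 9, with log2 ratios of 0.10, 0.11 and 0.26. ANKH (ENSG00000154122) had 3.64, 4.46, 4.98 and 5.18 FPKM and log2 ratios of 0.24, 0.37 and 0.41. Both had their lowest value in the day 0 library, by at most 1.28-fold for ENPP1 and 1.42-fold for ANKH. PHOSPHO1 (ENSG00000173868) had 1.37, 0.943, 1.42 and 1.04 FPKM, with log2 ratios of -0.29, 0.03 and -0.22 and no common direction. Within a library, the FPKM of ALPL was 0.136 of that of ENPP1 on day 0 and 1.80, 1.81 and 1.51 times that of ENPP1 on days 3, 6 and 9. Against ANKH it was 0.0809 on day 0 and 0.969, 0.875 and 0.808 later. The single listed transcript carried all FPKM of ENPP1, and likewise of ANKH. PHOSPHO1 was spread over 7 transcripts. ENST00000310544 was the steady one among them, with 0.668, 0.804, 0.823 and 0.796 FPKM, and ENST00000574638, at 0.517 FPKM before differentiation, was listed at 0 afterwards. Taken from ENST00000310544 alone, the log2 ratio of PHOSPHO1 was 0.11, 0.13 and 0.11, so its sign on days 3 and 9 depends on the other transcripts.

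SPARC (ENSG00000113140), the collagen- and calcium-binding osteonectin, was in another class of abundance. Its FPKM were 1113, 1469, 1351 and 1275 from the first library to the last, and it ranked 77th, 40th, 45th and 49th among the 12859 genes. The day 3 library was the highest and day 0 the lowest, and the log2 ratios of 0.40, 0.28 and 0.20 were within the limit. SPARC held 99.3% of the FPKM of the 10 genes on day 0 and 98.3% on day 9, while the other 9 together had 8.31, 14.9, 18.9 and 22.1 FPKM. Its main transcript ENST00000231061 had between 59.5% and 65.0% of the sum in each library and ENST00000521569 between 30.0% and 32.3%, so the composition of SPARC was nearly constant. On day 0 the order of FPKM was SPARC, ANKH, ENPP1, PHOSPHO1, SPP1 and ALPL, and on day 9 it was SPARC, SPP1, ANKH, ALPL, ENPP1 and PHOSPHO1. Which neighbours in these orders differ beyond the spread between libraries of one day cannot be said from 1 library each.

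**Figure D3:**
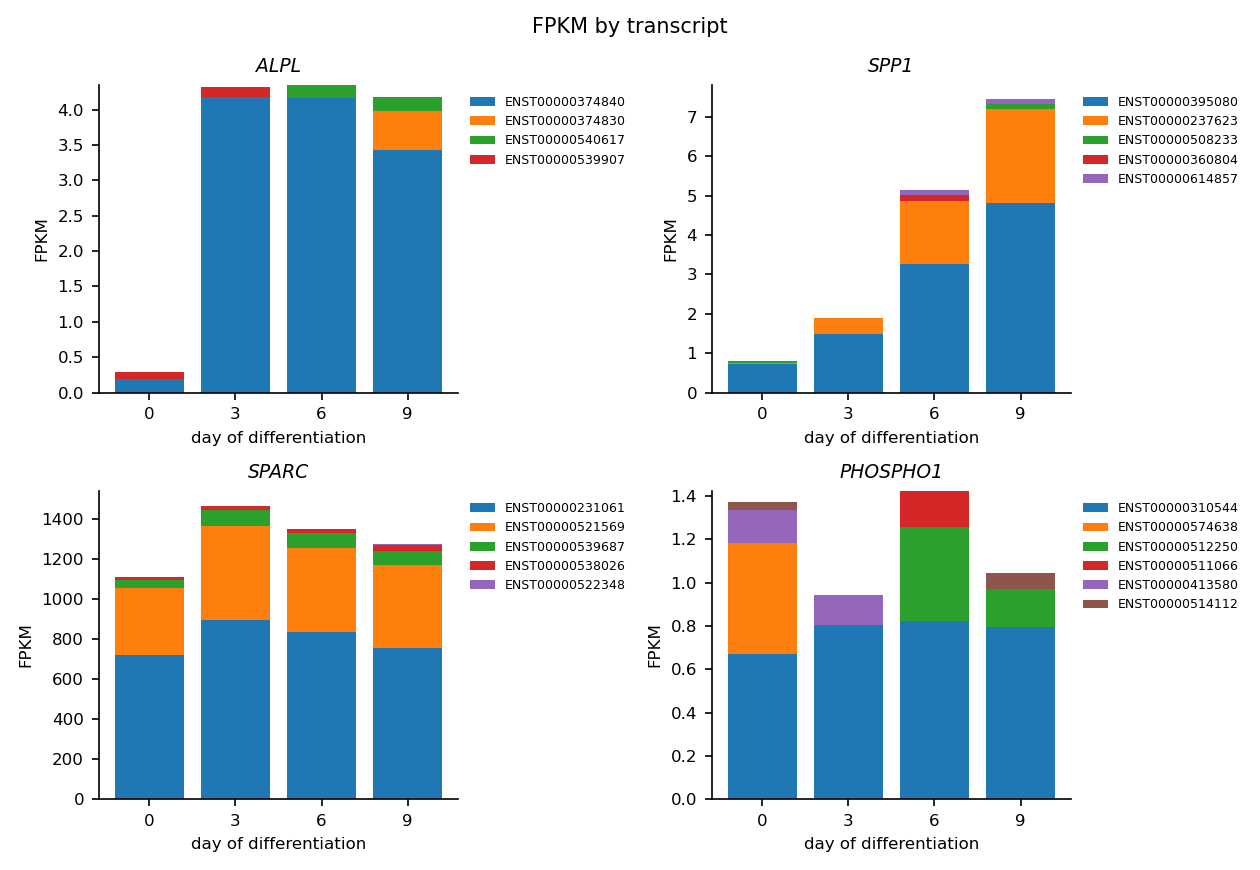
FPKM of each listed transcript (y axis, stacked bars from 0, 1 colour per transcript) by day of differentiation (x axis) for ALPL, SPP1, SPARC and PHOSPHO1. ENST00000374840 made up most of ALPL on days 3, 6 and 9, SPP1 was shared by 2 transcripts, and PHOSPHO1 differed between libraries in the transcripts that were above 0.

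IBSP, DMP1, BGLAP and MGP, which mark mature osteoblasts, osteocytes and calcifying or cartilage matrix, were near the bottom of the scale. IBSP (ENSG00000029559) was listed at 0 on day 0, and the later libraries held 0.0714, 0.133 and 0.609 FPKM of it. BGLAP (ENSG00000242252) was listed at 0 on day 0 and had 0.781, 0.426 and 0.793 FPKM later. For both, the 3 later libraries were above the day 0 library, but no fold is given against a listed 0, since an estimate that failed may be written as 0 too. DMP1 (ENSG00000152592) was listed at 0 on day 6, with 0.0152, 0.0194 and 0.0157 FPKM in the other libraries. MGP (ENSG00000111341) was at 0.0315 FPKM before differentiation, at a listed 0 on day 3, and at 0.0748 and 0.0326 FPKM afterwards, and 2 of its 3 transcripts were at 0 throughout. Of 77 ribosomal protein genes, by contrast, RPL10L alone was at 0 in any library. At FPKM of this size, without read counts, presence or absence was not detectable with any stated precision.

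The value of BGLAP depends on how reads were shared with the readthrough gene PMF1-BGLAP (ENSG00000260238), whose transcripts join the upstream gene PMF1 to BGLAP. PMF1-BGLAP had 4.08 FPKM on day 0 and 14.2, 12.5 and 13.4 on days 3, 6 and 9, with log2 ratios of 1.58, 1.41 and 1.51. Its transcript ENST00000490491 held 67.5% of its FPKM on day 0 and between 77.6% and 86.4% later. PMF1 (ENSG00000160783), a kinetochore protein gene, had 70.0, 30.9, 25.3 and 22.3 FPKM, with log2 ratios of -1.16, -1.43 and -1.61. The readthrough gene and PMF1 thus lay past the limit in opposite directions on each day. Added together, BGLAP and PMF1-BGLAP had 4.08, 14.9, 13.0 and 14.2 FPKM and log2 ratios of 1.65, 1.46 and 1.58. PMF1-BGLAP and PMF1 were named after their values were seen, and how reads were assigned among the 3 overlapping genes is not given in the sources used here.

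Upstream sequences were set beside these values because BGLAP, IBSP, SPP1 and ALPL are known for control by RUNX2, and RUNX2 itself had 7.37, 26.2, 19.3 and 18.2 FPKM. RefSeq windows of 250 bases before the start site (GRCh38.p14) were found for 9 of the 10 genes, all except MGP, and there were 11 windows since ALPL has 3 start sites. Shown 5′ to 3′ on the strand of the gene are the windows of SPP1 and ALPL, which passed the 2-fold limit, and of BGLAP and IBSP, which stayed under 1 FPKM. Capitals mark the RUNX letters TGTGGT or, on the other strand, ACCACA, the TATA letters TATAAA on the same strand, and the letters CCAAT or, on the other strand, ATTGG. The window of SPP1 is chr4:87975464-87975713 (plus strand), that of BGLAP chr1:156241934-156242183 (plus strand), that of IBSP chr4:87799304-87799553 (plus strand) and that of the first ALPL start site chr1:21508734-21508983 (plus strand).
SPP1: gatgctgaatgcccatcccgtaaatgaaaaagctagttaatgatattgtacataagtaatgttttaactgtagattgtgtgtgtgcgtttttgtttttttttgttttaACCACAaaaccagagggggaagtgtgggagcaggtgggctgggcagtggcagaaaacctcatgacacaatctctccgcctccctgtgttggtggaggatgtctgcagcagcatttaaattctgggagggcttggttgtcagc
BGLAP: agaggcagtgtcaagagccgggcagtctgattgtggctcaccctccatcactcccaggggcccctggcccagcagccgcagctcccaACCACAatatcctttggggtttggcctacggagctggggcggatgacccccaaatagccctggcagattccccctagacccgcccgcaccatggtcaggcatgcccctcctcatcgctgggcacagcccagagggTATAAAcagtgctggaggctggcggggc
IBSP: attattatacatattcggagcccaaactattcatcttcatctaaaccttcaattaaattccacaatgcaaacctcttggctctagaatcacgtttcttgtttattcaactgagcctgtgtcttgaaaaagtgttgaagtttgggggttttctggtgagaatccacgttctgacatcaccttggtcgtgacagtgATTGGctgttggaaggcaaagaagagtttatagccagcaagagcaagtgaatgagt
ALPL: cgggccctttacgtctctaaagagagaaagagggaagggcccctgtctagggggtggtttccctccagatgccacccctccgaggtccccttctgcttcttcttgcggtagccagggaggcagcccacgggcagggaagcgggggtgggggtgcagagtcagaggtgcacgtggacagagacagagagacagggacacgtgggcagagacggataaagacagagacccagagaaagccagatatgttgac

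The RUNX letters were found in 3 of the 9 genes with a window, SPP1, BGLAP and DMP1, each time once and as ACCACA. They lay at bases -142 to -137 of SPP1, -163 to -158 of BGLAP and -166 to -161 of DMP1, counted back from the start site. By window, 3 of the 11 held them, and of all 35116 windows of the same length, 11.0% did. Of these genes, 1 was past the 2-fold limit in FPKM and the other 2 stayed under 1 FPKM, and no window of ALPL held the letters. TATAAA was found in BGLAP alone, at -28 to -23, which is 1 of the 11 windows, and in 6.8% of all windows. CCAAT was found as ATTGG in 3 genes, at -57 to -53 of DMP1, -56 to -52 of IBSP and -48 to -44 of PHOSPHO1. By window, 3 of the 11 held it, and 32.0% of all windows did. The matches did not overlap each other. They are descriptions of letters in a window and no sign of binding.

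The label of the cells was checked against osteoblast genes. COL1A1 and COL1A2, the chains of type I collagen, had between 777 and 1974 and between 125 and 856 FPKM. COL1A2 was 2-fold higher than day 0 on all 3 days, with log2 ratios of 2.76, 2.58 and 2.15. COL1A1 was 2-fold higher on days 3 and 6, at 1.34 and 1.03, and within the limit on day 9, at 0.56. RUNX2 was 2-fold higher than day 0 on all 3 days, with log2 ratios of 1.70, 1.28 and 1.20. DLX5 had between 1.33 and 2.63 FPKM, and SP7 (osterix), which acts after RUNX2, was under 1 FPKM in every library, with at most 0.274. Of the other lineages, 0 of 5 adipocyte and 0 of 5 muscle markers reached 1 FPKM, with summed FPKM of 0.456 to 0.861 and 0.478 to 1.65. Of the chondrocyte markers, COL2A1 and ACAN stayed under 1 FPKM and SOX9 was 2-fold higher on all 3 days. COL10A1 had 0.762, 1.28, 0.967 and 0.973 FPKM, with log2 ratios of 0.37, 0.16 and 0.16 within the limit. The list summed to between 14.6 and 19.2 FPKM, mostly of MATN3. The FPKM of MATN3 were 16.9, 11.7, 8.21 and 8.33, with log2 ratios of -0.50, -0.96 and -0.94 within the limit. The endothelial list summed to between 10.6 and 18.2 FPKM, mostly of TEK, with PECAM1 and VWF under 1 FPKM. Markers of cell division differed in FPKM between the libraries as well. CCNB1 was 2-fold lower on all 3 days, at 225, 36.4, 31.9 and 32.4 FPKM. On days 3, 6 and 9, 2, 2 and 3 of the 5 proliferation markers were lower. CDK1 was within the limit, with log2 ratios of -0.48, -0.48 and -0.55. PCNA lay in the other direction, at 159, 313, 285 and 296 FPKM and log2 ratios of 0.98, 0.84 and 0.90 within the limit. The part of cell division in the values of the 10 genes was not tested.

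Beside the 10 genes, 61 other gene symbols of the same pathways were examined, of which 60 were listed and 41 reached 1 FPKM. On day 3, 10 of the 41 were 2-fold higher and 3 lower, on day 6 13 and 2, and on day 9 13 and 2. Of all genes tested, 8.13%, 9.01% and 9.60% were higher and 5.30%, 6.42% and 6.52% lower, and each list below is to be read beside these shares. Their median log2 ratios were 0.26, 0.34 and 0.38, beside -0.08, -0.08 and -0.09 for all genes. Past the limit on all 3 days were 9 higher genes, which held for 5.93% of all genes, and 0 were lower on all 3. The lists were chosen with earlier results of these data known. Among the 9, SMOC1, SPOCK3 and CYP24A1 were under 1 FPKM on day 0 and passed the minimum only through later libraries. The counts are therefore descriptions, and no excess over the shares of all genes is drawn from them.

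Among the 15 tested genes of pyrophosphate and phosphate transport, which include ALPL, PHOSPHO1, ENPP1 and ANKH, 1, 2 and 2 were 2-fold higher on days 3, 6 and 9 and 1, 0 and 0 lower, and ALPL was the 1 gene that was higher on all 3 days. With 15 genes, these counts are near the shares of all genes, 8.13%, 9.01% and 9.60% higher. The median log2 ratio of this list was 0.07, 0.11 and 0.14. NT5E (CD73), which makes adenosine outside the cell and had the highest FPKM of the list on day 9, had 106, 111, 150 and 161 FPKM and log2 ratios of 0.07, 0.50 and 0.60. LPCAT4, which acylates lysophospholipids and is named after its values were seen, had log2 ratios of 0.76, 1.03 and 1.17. The phosphate importers SLC20A1 and SLC20A2, also named after the values were seen, had 52.6, 63.1, 71.8 and 72.1 FPKM and 29.9, 13.5, 16.0 and 16.9 FPKM. The second was 2-fold lower on day 3, at -1.09, and the first was above its day 0 value in all 3 later libraries.

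Among the 6 tested genes of the acidic phosphoproteins and their processing, SPP1 included, 1, 3 and 3 were 2-fold higher on days 3, 6 and 9, and the median log2 ratio was 0.47, 0.82 and 0.98. FAM20C, the secretory pathway kinase that phosphorylates osteopontin and its relatives, was higher on all 3 days, at 15.8, 49.9, 58.9 and 47.9 FPKM and log2 ratios of 1.60, 1.84 and 1.54. CD44, a cell surface receptor of hyaluronan and osteopontin, had 292, 516, 720 and 716 FPKM and was past the limit on days 6 and 9, with 1.30 and 1.29. MEPE and DSPP, of the same family as SPP1, stayed under 1 FPKM like IBSP and DMP1.

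Vitamin K and Gla proteins had 6 tested genes, all outside the 10, with median log2 ratios of 0.17, 0.24 and 0.26. On days 3, 6 and 9, 1, 2 and 2 of them were 2-fold higher, beside 8.13%, 9.01% and 9.60% of all genes. On each day 1 was lower, beside 5.30%, 6.42% and 6.52%, but not the same gene on all 3. GAS6, a secreted Gla protein that activates receptor tyrosine kinases, was 2-fold higher on all 3 days, at 67.3, 172, 168 and 153 FPKM and log2 ratios of 1.34, 1.31 and 1.17. POSTN (periostin), the list's most abundant gene on day 9, had 306, 145, 231 and 268 FPKM and was 2-fold lower on day 3, at -1.07. PROS1 (protein S), a Gla protein related to GAS6 and named after its values were seen, had 3.42, 1.89, 0.743 and 1.15 FPKM and was 2-fold lower on days 6 and 9, with -1.34 and -1.04. The enzymes that make Gla residues were present throughout. GGCX, the carboxylase, had log2 ratios of 0.64, 0.56 and 0.61, and VKORC1, which recycles vitamin K, had 0.98, 1.09 and 1.16. Both enzymes were named after their values were seen.

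Within the SPARC family, 5 genes were tested, SPARC included, and 2, 3 and 3 were 2-fold higher and 0 lower, with median log2 ratios of 0.73, 1.15 and 1.28. SMOC1, a modular calcium-binding protein that restrains BMP signalling, went from 0.208 FPKM on day 0 to 14.1, 15.6 and 15.0, with log2 ratios of 3.64, 3.78 and 3.73. SPOCK3, a testican proteoglycan, had 0.483, 2.97, 2.29 and 2.60 FPKM and log2 ratios of 1.42, 1.15 and 1.28. These 2 were higher on all 3 days, while SPARC, the most abundant of the family, was not past the limit on any.

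The annexins and ion-handling genes of matrix vesicles included 7 tested genes, and here the median log2 ratio was below 0, at -0.55, -0.59 and -0.44. ANXA2, the most abundant of them, had 1319, 904, 877 and 970 FPKM and log2 ratios of -0.55, -0.59 and -0.44. CA12, a cell surface carbonic anhydrase, was the 1 gene of the list that was 2-fold higher on any of the 3 days, with 1.16, 3.65, 4.96 and 5.86 FPKM. S100A10, the binding partner of ANXA2 and named after its values were seen, had 247, 168, 99.0 and 81.8 FPKM and was 2-fold lower on days 6 and 9, with -1.31 and -1.58.

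Of the other noncollagenous and systemic regulators, 8 genes were tested and 4 were 2-fold higher on all 3 days, with list medians of 1.35, 0.88 and 1.06. VDR, the vitamin D receptor, had 5.56, 12.2, 13.0 and 13.6 FPKM. CYP24A1, the enzyme that breaks down vitamin D and a known target of VDR, had 0.227, 3.32, 2.91 and 3.06 FPKM. The log2 ratios of VDR were 1.01, 1.09 and 1.15, and those of CYP24A1 were 1.82, 1.67 and 1.73. STC1 (stanniocalcin), a secreted regulator of calcium and phosphate, had 1.20, 6.03, 7.55 and 10.3 FPKM and log2 ratios of 1.68, 1.96 and 2.37. TNFRSF11B (osteoprotegerin), the decoy receptor of the osteoclast factor RANKL, had 2.54, 20.2, 24.9 and 26.5 FPKM and log2 ratios of 2.58, 2.87 and 2.96. STC2, the most abundant of the list on day 9, had 101, 136, 162 and 173 FPKM and stayed within the limit. AHSG, SOST and CASR, known from serum, osteocytes and the parathyroid and named after their values were seen, were listed at 0 in every library.

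**Figure D4:**
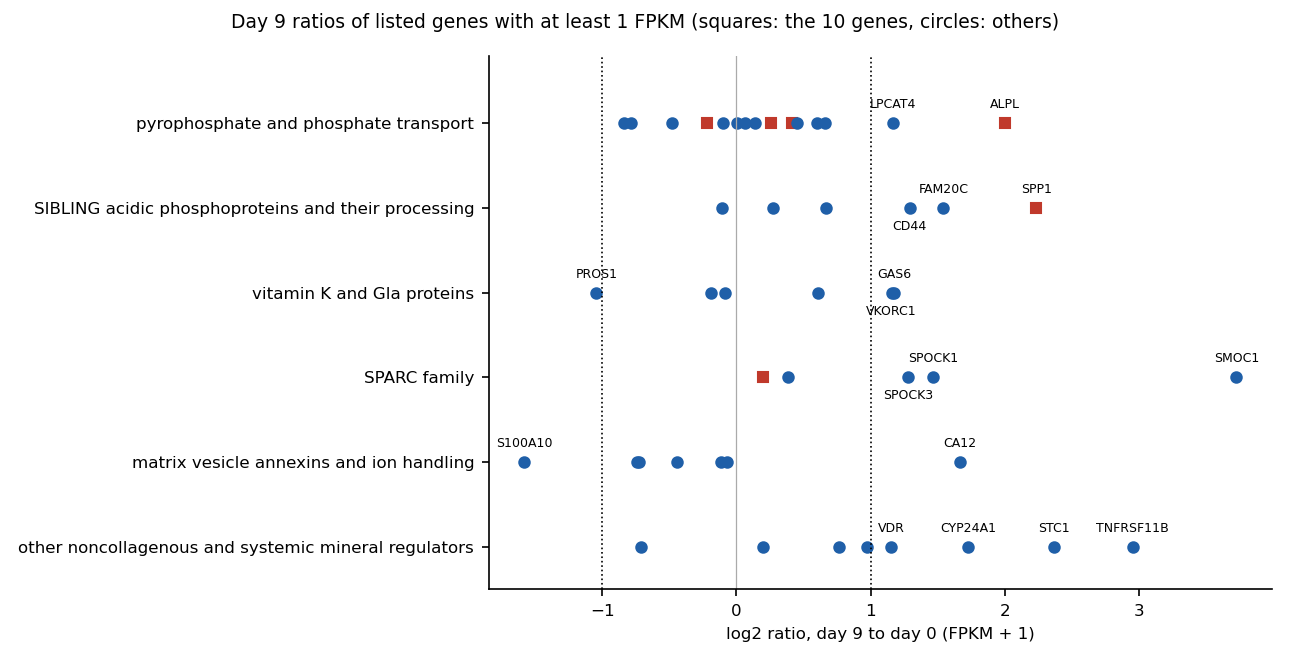
Log2 ratio of day 9 to day 0 after adding 1 FPKM (x axis) for each listed gene with at least 1 FPKM in any library, 1 row per list. Red squares are the 10 genes, blue circles the others, the dotted lines mark the 2-fold limit and the genes past it are named. On this scale, SMOC1 at 3.73 and TNFRSF11B at 2.96 lay farther from 0 than SPP1 at 2.24 and ALPL at 2.0. With 0.1 FPKM added, SMOC1 was at 5.62, ALPL at 3.44, TNFRSF11B at 3.33 and SPP1 at 3.08, so the order of ALPL and TNFRSF11B depends on the amount added.

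For ALPL and SPP1, the genes nearest in time course were taken on the scale with 1 FPKM added. They are the 3 with the smallest Euclidean distance in the 3 log2 ratios to day 0, over 4 libraries. On this scale the ratios of low genes such as ALPL and SPP1 come out smaller, so nearness depends on the amount added. Distances with 0.1 FPKM added were not computed. For ALPL these were YPEL3 (distance 0.046, log2 ratios 2.08, 2.06 and 2.01), MARCH3 (0.069) and SLC8A1, a sodium/calcium exchanger (0.12). Their FPKM on day 9 were 62.7, 31.6 and 27.0, each above that of ALPL. YPEL3 had 14.8 FPKM on day 0 and 65.9, 64.8 and 62.7 later. The deposited FPKM of ALPL, by comparison, were 14.7, 14.8 and 14.2 times its 0.294 FPKM of day 0. In all, 35 genes lay within a distance of 0.25 of ALPL. For SPP1, which was added after its values were seen, the nearest were TGM2, a transglutaminase that crosslinks matrix proteins (distance 0.12), CD24 (0.24) and the metallothionein MT2A (0.24), and 3 genes lay within 0.25. TGM2 had 7.35, 12.9, 26.1 and 40.5 FPKM, like SPP1 without a later library below an earlier one. The deposited FPKM of SPP1 were 9.38 times its 0.794 FPKM of day 0 on day 9.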

How the data were processed

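RNA of hFOB1.19 cells was sequenced at 4 time points, 1 library each. Per the methods, ribosomal RNA was removed and reads were aligned with Bowtie and TopHat. The methods describe treatment with RNase R, which digests linear RNA, for the mRNA libraries, whereas the circular RNA libraries, in which it is commonly used, are described as untreated. Whether the mRNA libraries were treated, and so how far the FPKM reflect linear mRNA, could not be settled. The submitters' processing notes list Bowtie 0.12.2, another version than the methods give, and the mouse build mm8. The program behind the FPKM, the annotation and the build of the mRNA table are not given in the sources used here.

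The authors deposited FPKM for 79798 mRNA transcripts. FPKM were summed per symbol, and 17 of 19610 symbols, 0 of them among the 10 genes, cover more than 1 gene ID. Only the mRNA FPKM were used. The authors' tables of fold changes, p-values and q-values against day 0 were not used. With 1 library per time point no test was made, and the 2-fold rule with 1 FPKM added and a minimum of 1 FPKM in any library took its place. The 10 genes and the lists (7 of related pathways, 7 of cell markers) were chosen with earlier results of these data known. Named are the 10 genes, list genes past the limit on all 3 days, the most abundant gene of each pathway list on day 9, the collagen and transcription factor genes of the label check, and the genes nearest to a member past the limit on all 3 days. Other genes, apart from the fixed cell markers, were named after their values were seen. The rule was tested on simulated data. Alternatives covered the amount added, the minimum, the limit, 2 rescalings and the main transcript alone. The addition of PMF1-BGLAP to BGLAP was chosen after seeing the data. Python 3.11.15, numpy 2.4.6, pandas 2.3.3 and matplotlib 3.10.9 were used.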

Additional observations from a re-analysis of the deposited data

How the results depend on the processing

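No paired analysis was possible because there is 1 library per day, and leaving out a library would leave a day without a value. Of the log2 ratios of the 6 tested genes, 2 crossed the limit under an alternative: SPP1 on day 3 (1.16 with 0.1 FPKM added) and SPP1 for day 6 against day 3 (0.79 from its main transcript). The sum of BGLAP and PMF1-BGLAP, mostly of PMF1-BGLAP, had log2 ratios of 1.65, 1.46 and 1.58, while BGLAP alone stayed under 1 FPKM and was not tested. Of the 10 genes, 2 were higher on day 3 and on all 3 days with 0.1 FPKM added or a 1.5-fold limit. With a minimum of 5 FPKM, which leaves fewer genes, 0 were higher on day 3 and on all 3 days and 1 on day 6 and on day 9, and with a 4-fold limit 1 was higher on day 6. Of the other pathway genes, a 1.5-fold limit, wider by construction, gave 17 higher and 5 lower on day 3, 6 lower on day 6, 7 lower on day 9, and 14 higher and 4 lower on all 3 days. A 4-fold limit gave 2 higher on days 3 and 6 and on all 3 days, 3 on day 9, and 0 lower on each day. Lower on day 9 were 4 with 0.1 FPKM added and 1 with FPKM rescaled to a median log2 ratio of 0, and with a minimum of 5 FPKM 1 was lower on days 6 and 9. For these the cause was not tested. The next shares are of the called genes among all 12859 genes tested. Rescaled to the same upper quartile, 70.8% were higher on day 3 against 60.6%, 68.8% against 58.4% on day 6 and 66.5% against 59.6% on day 9. Rescaled to a median log2 ratio of 0, the shares were 69.1%, 67.0% and 67.9%. Percentiles of level among all genes above 0 FPKM were higher by construction, 43.0 in place of 21.5 for ALPL on day 9, and the share of ENST00000310544 in PHOSPHO1 on day 9 was 81.9% in place of 76.2% with transcripts under 0.1 FPKM left out. Without read counts, no interval can be set around low FPKM.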

Other observations

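CLEC3B (tetranectin), a plasminogen-binding protein found in mineralizing bone matrix and named after its values were seen, had 2.82, 14.0, 2.54 and 1.33 FPKM from day 0 to day 9. It was 2-fold higher on day 3, with a log2 ratio of 1.98, and within the limit on days 6 and 9, at -0.11 and -0.72, though with 0.1 FPKM added it was 2-fold lower on day 9, at -1.03. The day 3 library alone stood out, unlike for ALPL or SPP1.

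PHEX, an endopeptidase of the osteocyte whose loss causes phosphate wasting, also named after its values were seen, had 0.653 FPKM on day 0 and 0.0933, 0.0578 and 0.0502 later. It was under 1 FPKM in every library and was not tested. ABCC6, a transporter needed for the release of nucleotides that ENPP1 turns into pyrophosphate, had 2.18, 1.41, 1.15 and 0.781 FPKM, with log2 ratios of -0.40, -0.57 and -0.84 within the limit. With 0.1 FPKM added in place of 1, ABCC6 was 2-fold lower on day 9, at -1.37.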
